A study of Mus musculus with 12 samples.

Results

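Fatty acid uptake and oxidation was followed in mouse quadriceps, the large thigh muscle, through 35 genes chosen by symbol. They run from the capillary wall and the cell membrane to the mitochondrial matrix, and all 35 were found among the 43346 genes of the deposited count table. All 35 also had enough reads to be among the 16146 genes tested, so none was lost to the filter on low counts. Polyadenylated RNA of whole quadriceps was sequenced in 12 libraries from C57BL/6 mice, an inbred laboratory strain, in 3 groups of 4 libraries. The first group, D+Q, was 24 months old and had been gavaged with 5 mg/kg of dasatinib and 50 mg/kg of quercetin on 3 consecutive days in every 2 weeks, starting at month 20. The second, old vehicle, was also 24 months old and received the carrier of ethanol, polyethylene glycol and Phosal 50 by gavage on that schedule. The third, young, was 6 months old, and the labels state no gavage for it, so age and gavage cannot be told apart wherever an old group is set against young. Dasatinib blocks tyrosine kinases, quercetin is a flavonoid from plants, and together they serve as a senolytic, a drug given to clear senescent cells. Whether each library came from its own mouse is not stated, and the sex of the mice is not given in the sources used here, so the p-values speak only of the spread between the libraries at hand.

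Skeletal muscle burns fatty acids that lipoprotein lipase frees from circulating triglyceride or that the fibre's own lipid droplets release. Inside the fibre they are tied to coenzyme A, carried into the mitochondrion as carnitine esters and shortened in repeated turns of beta-oxidation, whose electrons reach the respiratory chain through the electron transfer flavoprotein. Malonyl-CoA holds back entry into the mitochondrion, and the fatty acid sensing receptors PPAR-alpha and PPAR-delta are known to raise transcription of many genes of the route in fasting and exercise.

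Depth ran from 43152512 to 45901603 counted reads in D+Q, from 38109111 to 49792488 in old vehicle and from 26715140 to 47818075 in young. At these depths 3 reads are worth between 0.0561 and 0.106 CPM (counts scaled to a common library size by the trimmed mean of M values), and the least abundant of the 35 genes, Acot1, still held 224 reads over the D+Q libraries, 148 over old vehicle and 183 over young. All 12 skeletal muscle fibre markers were found, and their summed level was between 109000 and 166000 CPM in every library. A library's GC slope, the change of log2 CPM with each 10 points of a transcript's GC content after centring every gene on its mean, was 0.425, 0.0963, 0.326 and -0.243 in D+Q replicates 1 to 4. It was -0.107, -0.0924, 0.229 and 0.258 in old vehicle and -0.0962, 0.291, -0.471 and -0.614 in young, computed without the 35 genes. Young replicates 3 and 4 stood lowest, and every group held libraries of both signs.

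No gene of the route passed the test in any comparison. With edgeR's quasi-likelihood test and adjusted p under 0.05, 0 of 35 were called in D+Q against old vehicle, where 0% of all tested genes were called. The count was also 0 of 35 in D+Q against young, beside 0.892% of all tested genes, and 0 of 35 in old vehicle against young, beside 1.86%. At an unadjusted p under 0.05 there were 0 members in D+Q against old vehicle (2.16% of all tested genes). There were 2 in D+Q against young, Acacb and Ppard, or 5.71% of the members (17.8% of all tested genes), and 2 in old vehicle against young, Etfa and Ppara, again 5.71% (16.0% of all tested genes). DESeq2 and limma-voom likewise called 0 of 35 in all 3 comparisons. Of all tested genes DESeq2 called 0.0664% in D+Q against old vehicle, 3.29% in D+Q against young and 4.27% in old vehicle against young. For limma-voom these shares were 0%, 0.749% and 1.71%, and shares at an unadjusted p were not computed for either tool. DESeq2 had 0, 2 and 4 members at an unadjusted p under 0.05 in D+Q against old vehicle, D+Q against young and old vehicle against young, and limma-voom had 0, 2 and 3. In bulk muscle, fewer cells of a type and less RNA per cell cannot be told apart.

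The precision behind these counts differed from gene to gene. In D+Q against old vehicle, the 95% interval of the fold change stayed within 2-fold in either direction for 30 of 35 genes and within 1.5-fold for 19. The 5 genes with wider intervals were Acot1, Pdk4, Ucp3, Ppara and Plin5. In D+Q against young, 25 of 35 intervals stayed within 2-fold and 14 within 1.5-fold. In old vehicle against young, 26 stayed within 2-fold and 15 within 1.5-fold. For the remaining genes of each comparison a change of 2-fold lay within the interval. The median log2 fold change of the 35 was 0.084 in D+Q against old vehicle (0.01 over all tested genes), 0.064 in D+Q against young (-0.003) and -0.046 in old vehicle against young (-0.01). Both comparisons with young use the same young libraries, and both comparisons with old vehicle use the same old vehicle libraries.

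**Figure D1:**
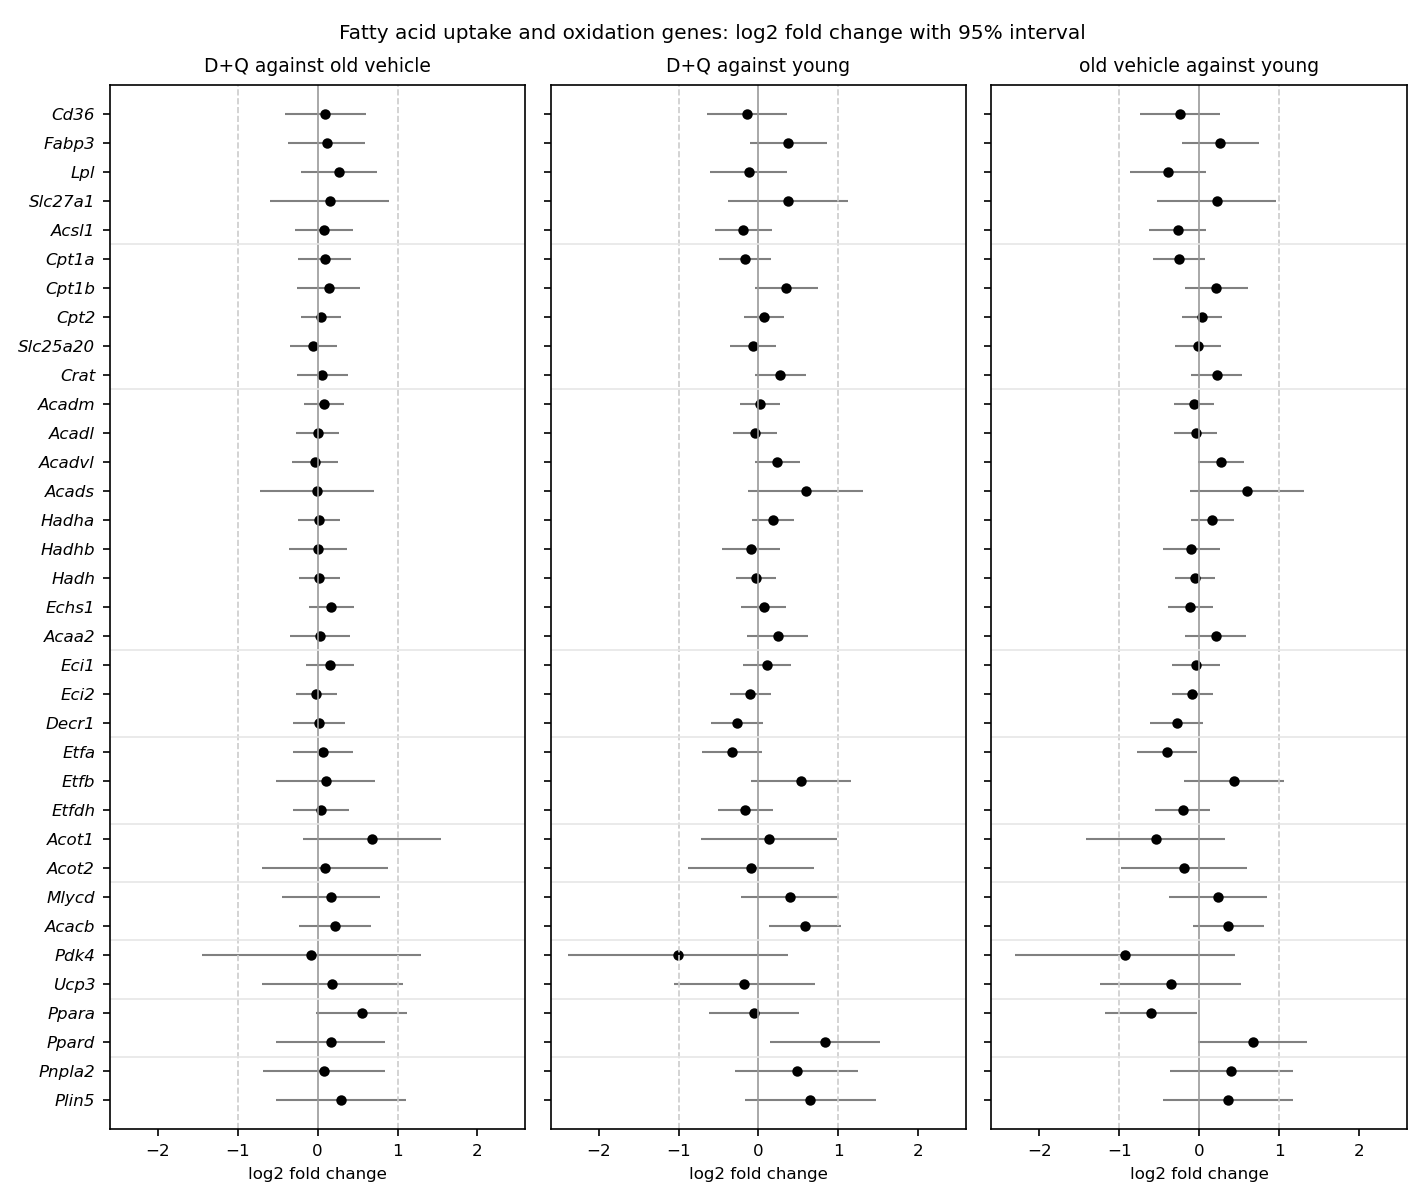
Log2 fold change of each of the 35 genes (points) with its 95% interval (lines) in the 3 comparisons, genes running down the page by role and dashed lines at 2-fold. Most intervals cross 0, those of Pdk4, Ucp3, Acot1 and Plin5 are among the widest, and the intervals that leave 0 out are those of Acacb and Ppard in D+Q against young and of Etfa and Ppara in old vehicle against young, none of which passed after adjustment.

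Levels per transcript length, from the deposited RPKM, put Fabp3 first in every group. This small cytosolic protein that ferries fatty acids through muscle and heart cells averaged 671 ± 159 RPKM in D+Q, 640 ± 136 in old vehicle and 533 ± 112 in young (SD, n = 4). Acadl, the long-chain acyl-CoA dehydrogenase, averaged 267 ± 58.8 RPKM in D+Q, 275 ± 34.5 in old vehicle and 286 ± 19.3 in young, and Acadvl, its partner for very long chains, 250 ± 24.3, 265 ± 23.7 and 220 ± 32.3 in the same groups. The ranges of Acadl and Acadvl overlapped in D+Q and in old vehicle. In young every Acadl library (270 to 311 RPKM) lay above every Acadvl one (188 to 257 RPKM), a difference that was not tested. In young, Pdk4 ranked second of the 35 at 334 ± 385 RPKM, a mean whose SD exceeded it. At the other end, Ppard averaged 5.27 ± 0.795 RPKM in D+Q, 4.89 ± 1.2 in old vehicle and 3.06 ± 1.43 in young. Ppara averaged 1.4 ± 0.432, 0.987 ± 0.0764 and 1.53 ± 0.588 in those groups. Acot1 was last, at 0.816 ± 0.215, 0.524 ± 0.231 and 0.754 ± 0.359. In young, transcripts of both receptors thus ranked among the 4 lowest of the 35, with Cpt1a and Acot1.

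Of the 5 genes of uptake and activation, none was called and the only gene whose old vehicle and young libraries did not overlap was Lpl. Lpl encodes the lipase that frees fatty acids from lipoprotein triglyceride at the capillary wall. It had 1000, 1510, 1270 and 2490 CPM in D+Q libraries, 1500, 1120, 1380 and 1210 CPM in old vehicle and 1660, 1620, 1760 and 1790 CPM in young. Every old vehicle library lay below every young one, while the D+Q libraries spanned both groups, with replicate 4 the highest of all 12 and replicate 1 the lowest. The log2 fold change was 0.26 ± 0.221 in D+Q against old vehicle (SE; adjusted p = 1), -0.12 ± 0.22 in D+Q against young (adjusted p = 0.748) and -0.39 ± 0.221 in old vehicle against young (adjusted p = 0.391, edgeR). Lpl was the 1 member of 35, or 2.86%, with no overlap between old vehicle and young, beside 9.36% of all tested genes. No member was without overlap in D+Q against old vehicle (2.17% of all tested genes) or in D+Q against young (6.69%).

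Cd36, the membrane protein that takes up long-chain fatty acids, shared the high D+Q library. It had 563, 736, 677 and 1230 CPM in D+Q libraries, 900, 679, 749 and 675 CPM in old vehicle and 714, 769, 842 and 1220 CPM in young. D+Q replicate 4 and young replicate 4 stood above the other 10 libraries, and all groups overlapped. Its log2 fold change was 0.10 ± 0.232 in D+Q against old vehicle (adjusted p = 1), -0.14 ± 0.232 in D+Q against young (adjusted p = 0.72) and -0.24 ± 0.233 in old vehicle against young (adjusted p = 0.587). Without D+Q replicate 4, the log2 fold change in D+Q against old vehicle was -0.19 for Cd36 and -0.05 for Lpl, and that in D+Q against young was -0.43 for Cd36 and -0.44 for Lpl. That library had 1.67 times the next highest D+Q level for Cd36 and 1.65 times for Lpl, and its GC slope was the lowest of its group. Cd36 and Lpl have transcripts of 38.4% and 43.5% GC, the lowest of the 35. With the GC slope as a covariate, the D+Q against old vehicle value was 0.12 ± 0.148 for Cd36 and 0.27 ± 0.173 for Lpl.

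The other uptake genes overlapped between all groups. Fabp3 had 393, 647, 612 and 608 CPM in D+Q, with replicate 1 standing alone below the rest, 542, 357, 554 and 639 CPM in old vehicle and 384, 577, 312 and 469 CPM in young. Slc27a1, the fatty acid transport protein FATP1, ran from 69.5 to 110 CPM in D+Q, from 48.4 to 104 in old vehicle and from 38.3 to 123 in young. Acsl1, the synthetase that ties long-chain fatty acids to coenzyme A, ran from 462 to 630 CPM in D+Q, from 407 to 563 in old vehicle and from 435 to 712 in young. The median log2 fold change of the 5 uptake genes was 0.112 in D+Q against old vehicle, -0.124 in D+Q against young and -0.24 in old vehicle against young.

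At the entry to the carnitine shuttle, transcripts of the muscle isoform far outnumbered those of the liver isoform. Cpt1b encodes the muscle form of carnitine palmitoyltransferase 1, which puts the acyl chain on carnitine at the outer mitochondrial membrane, and Cpt1a the form best known from liver. Per length, Cpt1b averaged 130 ± 9.37 RPKM in D+Q, 122 ± 19.3 in old vehicle and 106 ± 22.4 in young, whereas Cpt1a averaged 2.41 ± 0.263, 2.36 ± 0.351 and 2.81 ± 0.42. Cpt1b counts were 470, 433, 502 and 397 CPM in D+Q libraries, 398, 307, 471 and 463 CPM in old vehicle and 330, 497, 292 and 296 CPM in young. Of the young libraries, 3 lay below every D+Q library and replicate 2 lay at the level of the D+Q ones. The fitted log2 fold change was 0.14 ± 0.181 in D+Q against old vehicle (adjusted p = 1), 0.35 ± 0.182 in D+Q against young (adjusted p = 0.308) and 0.21 ± 0.181 in old vehicle against young (adjusted p = 0.542).

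Cpt1a had 10.8, 12.1, 9.62 and 10.1 CPM in D+Q libraries, 11.2, 8.12, 10.2 and 10.5 CPM in old vehicle and 10.7, 13.6, 9.54 and 13.9 CPM in young, with all groups overlapping. On the log2 scale the fold change was 0.09 ± 0.151, -0.16 ± 0.151 and -0.25 ± 0.151 in D+Q against old vehicle, D+Q against young and old vehicle against young, with adjusted p of 1, 0.516 and 0.408. Cpt2, which returns the chain to coenzyme A in the matrix, stayed between 108 and 153 CPM in all 12 libraries, and Slc25a20, the carrier of acylcarnitine across the inner membrane, between 114 and 156. Their intervals were among the narrow ones: in D+Q against old vehicle, Cpt2 had a log2 fold change of 0.04 with a 95% interval from -0.208 to 0.291. Crat, which makes acetylcarnitine from surplus acetyl-CoA, ran from 592 to 706 CPM in D+Q, from 538 to 712 in old vehicle and from 441 to 715 in young.

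Of the 9 enzymes of the beta-oxidation spiral, Acads had the widest spread relative to its mean and, against young, the largest fold change. Acadm, the medium-chain acyl-CoA dehydrogenase, had 553, 594, 667 and 726 CPM in D+Q libraries, 639, 500, 653 and 604 CPM in old vehicle and 568, 683, 618 and 637 CPM in young. The young libraries lay inside the range of the D+Q ones. Its log2 fold change was 0.08 ± 0.116 in D+Q against old vehicle (95% interval from -0.167 to 0.335, adjusted p = 1), 0.019 ± 0.116 in D+Q against young (adjusted p = 0.934) and -0.06 ± 0.116 in old vehicle against young (adjusted p = 0.779). Acads, the short-chain dehydrogenase, averaged 70 CPM in D+Q, 70.3 in old vehicle and 46.4 in young, 1.51-fold in both comparisons with young (adjusted p = 0.33 for D+Q and 0.384 for old vehicle). It had 93.6, 66.8, 79.3 and 40.4 CPM in D+Q libraries, 56.3, 51.1, 84.3 and 89.4 CPM in old vehicle and 48.8, 77.1, 32.8 and 27 CPM in young. Its transcript is 60.1% GC, and with the GC slope as a covariate its standard error in old vehicle against young was 0.0635, against 0.331 without it, while the log2 fold change was 0.17, against 0.60 without it. The remaining members of this group, Acadl, Acadvl, Hadh, Echs1 and Acaa2, ran from 154 to 795 CPM over the 12 libraries, and the log2 fold change farthest from 0 among them was 0.27 ± 0.131, for Acadvl in old vehicle against young (adjusted p = 0.332).

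Hadha and Hadhb encode the alpha and beta subunits of the mitochondrial trifunctional protein, which carries out the last 3 steps of each turn for long chains. They lie head to head on chromosome 5 of mm10, with Hadha ending at 30155162 on its 5′ side and Hadhb starting at 30155248. The stretch between their annotated starts is shown because both genes are transcribed away from it. It is printed on the plus strand from the RefSeq promoter table (GRCm38.p6), with matches to the GC box GGGCGG in capitals.
between Hadha and Hadhb, chr5:30155163-30155247, plus strand: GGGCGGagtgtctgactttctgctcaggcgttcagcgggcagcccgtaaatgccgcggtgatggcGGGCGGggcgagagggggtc
It holds 2 such boxes in 85 bases, of which 69.4% are G or C. Searched on both strands of windows from 250 bases before to 50 after a start, GGGCGG was found in 21 of the 30 members with such a window and in 35.7% of all 32851 windows. A member was counted if any window under its symbol held the motif, whereas the percentage is of single windows. The 2 shares are therefore not directly comparable.

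Hadha had 652, 815, 794 and 857 CPM in D+Q libraries, 797, 629, 790 and 866 CPM in old vehicle and 629, 763, 642 and 718 CPM in young. The fitted log2 fold change was 0.017 ± 0.123 in D+Q against old vehicle (adjusted p = 1), 0.18 ± 0.123 in D+Q against young (adjusted p = 0.394) and 0.16 ± 0.123 in old vehicle against young (adjusted p = 0.495). Hadhb had 435, 609, 591 and 777 CPM in D+Q libraries, 659, 533, 583 and 633 CPM in old vehicle and 565, 562, 652 and 799 CPM in young. Here the values were 0.0026 ± 0.166, -0.10 ± 0.166 and -0.10 ± 0.166, with adjusted p of 1, 0.74 and 0.767. The groups of both genes overlapped, but the libraries did not keep the same order for the 2 subunits: D+Q replicate 1 was lowest of its group for both, whereas young replicate 2 was the highest young library for Hadha and the lowest for Hadhb. Of the auxiliary enzymes for unsaturated chains, the isomerases Eci1 and Eci2 ran from 79.1 to 140 CPM, and the reductase Decr1 from 199 to 330 CPM in D+Q, from 231 to 285 in old vehicle and from 265 to 347 in young. Decr1 had a log2 fold change of -0.28 ± 0.151 in old vehicle against young (adjusted p = 0.366).

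The electron transfer flavoprotein, which accepts the electrons of the acyl-CoA dehydrogenases, gave the smallest unadjusted p of the 35 in old vehicle against young. Its alpha subunit gene Etfa had 301, 378, 378 and 541 CPM in D+Q libraries, 426, 354, 376 and 365 CPM in old vehicle and 441, 419, 524 and 632 CPM in young. Old vehicle replicate 1 lay above the lowest young one, and D+Q replicate 4 lay among the young. The log2 fold change was -0.41 ± 0.174 in old vehicle against young (unadjusted p = 0.0367, adjusted p = 0.278, edgeR), -0.34 ± 0.174 in D+Q against young (adjusted p = 0.307) and 0.07 ± 0.173 in D+Q against old vehicle (adjusted p = 1). The beta subunit gene Etfb pointed the other way, with 230, 184, 219 and 125 CPM in D+Q libraries, 141, 131, 208 and 227 CPM in old vehicle and 134, 209, 90.5 and 90.3 CPM in young. On the log2 scale the fold change was 0.43 ± 0.287 in old vehicle against young (adjusted p = 0.444) and 0.53 ± 0.287 in D+Q against young (adjusted p = 0.318). Etfdh, the ubiquinone reductase that takes the electrons on, ran from 236 to 400 CPM in D+Q, from 252 to 337 in old vehicle and from 301 to 422 in young.

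Since both proteins are built from 2 different subunits, the ratio of the subunit transcripts was read in each library. Hadhb over Hadha was 0.667, 0.747, 0.744 and 0.907 in D+Q, 0.827, 0.847, 0.738 and 0.731 in old vehicle and 0.898, 0.737, 1.02 and 1.11 in young. The means were 0.766 ± 0.101, 0.786 ± 0.0598 and 0.941 ± 0.162 (SD, n = 4 each). Exact two-sided permutation tests gave p = 0.743 for D+Q against old vehicle, p = 0.2 for D+Q against young and p = 0.143 for old vehicle against young, in a design whose smallest p is 0.0286. Etfa over Etfb was 1.31, 2.05, 1.73 and 4.33 in D+Q, 3.02, 2.7, 1.81 and 1.61 in old vehicle and 3.29, 2.0, 5.79 and 7.0 in young. The means were 2.35 ± 1.35, 2.29 ± 0.682 and 4.52 ± 2.28, and the exact permutation p was 0.943, 0.171 and 0.114 in the same 3 comparisons. None of these tests gave a p under 0.05.

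The subunit genes differ in base composition, and the ratios followed the libraries' GC slopes. Transcripts are 45.4% GC for Hadhb, 51.3% for Hadha, 45% for Etfa and 57.1% for Etfb (GENCODE M21). Stretches of 60 coding bases whose share of G and C is close to that of the whole coding sequence are shown to let the difference be seen, with G and C in capitals and positions counted from the first base of the start codon.
Hadhb, coding bases 100 to 159: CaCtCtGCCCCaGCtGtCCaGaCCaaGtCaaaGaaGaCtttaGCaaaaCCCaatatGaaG
Hadha, coding bases 64 to 123: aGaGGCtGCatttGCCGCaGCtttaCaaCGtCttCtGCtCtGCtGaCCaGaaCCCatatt
Etfa, coding bases 40 to 99: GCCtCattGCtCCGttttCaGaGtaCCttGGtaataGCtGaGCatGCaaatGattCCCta
Etfb, coding bases 10 to 69: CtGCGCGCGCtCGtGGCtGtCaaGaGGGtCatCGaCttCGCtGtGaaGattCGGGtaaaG
These stretches hold 28, 30, 27 and 35 G or C in the order printed. Over the 12 libraries the log2 ratio of Hadhb to Hadha had a Pearson r of -0.979 with the GC slope (permutation p = 2e-05, the smallest that the resampling gives) and a Spearman rho of -0.93 (permutation p = 8e-05). For Etfa over Etfb, r was -0.985 (permutation p = 2e-05) and rho -0.958 (permutation p = 2e-05). These 2 relations were the ones computed, and the adjusted p were 2e-05 for both r, 8e-05 for the first rho and 4e-05 for the second. The slope is itself the trend of log2 CPM with GC content over the other tested genes. The direction of a ratio of a lower-GC to a higher-GC transcript was therefore largely set beforehand. Other gene pairs with a like difference in GC content were not computed, so nothing particular to these subunits is shown. Without young replicates 3 and 4, the libraries farthest from the median slope, r was -0.948 and -0.962 over 10 libraries, and with each group centred on its own mean it was -0.98 and -0.988 over 12. With the slope as a covariate, the old vehicle against young log2 fold change of Etfb was 0.06 ± 0.0766 and that of Etfa -0.18 ± 0.104. What sets a library's GC slope was not tested.

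**Figure D2:**
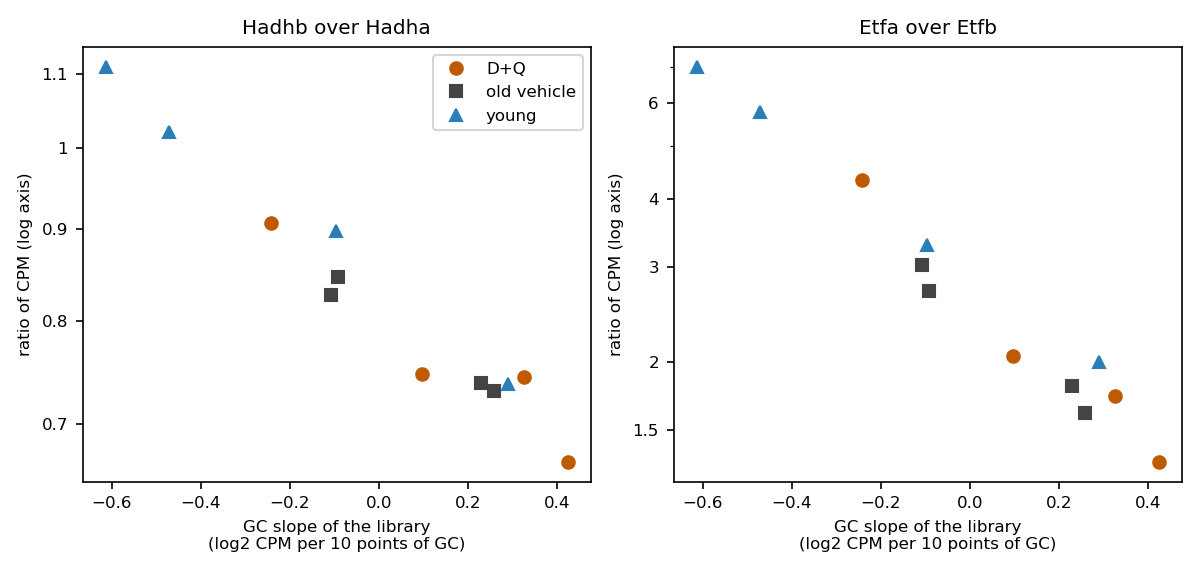
Ratio of subunit transcripts (vertical log axis, CPM over CPM) against the GC slope of the library (horizontal axis, log2 CPM per 10 points of GC), 1 point per library, for Hadhb over Hadha (left) and Etfa over Etfb (right). In both panels D+Q, old vehicle and young libraries lie along 1 falling line, from young replicate 4 at ratios of 1.11 and 7.0 to D+Q replicate 1 at 0.667 and 1.31.

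Acot1 and Acot2 encode a cytosolic and a mitochondrial thioesterase that split acyl-CoA again. Acot2 ran from 10.1 to 14.1 CPM in D+Q, from 7.15 to 13.7 in old vehicle and from 5.78 to 20.4 in young, and Acot1 from 1.05 to 1.58, from 0.348 to 1.08 and from 0.583 to 1.85 CPM. Acot1 had the highest log2 fold change of the 35 in D+Q against old vehicle, 0.68 ± 0.399 (adjusted p = 1), on the fewest reads. Of the 50-base words of Acot1 transcripts, 23.7% also occur in Acot2, so the counts of the 2 genes are uncertain with respect to each other.

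Of the pair that sets malonyl-CoA, Acacb had an unadjusted p under 0.05 in D+Q against young. Acacb encodes acetyl-CoA carboxylase 2, which makes malonyl-CoA beside carnitine palmitoyltransferase 1, and Mlycd the decarboxylase that removes it. Acacb had 391, 309, 322 and 281 CPM in D+Q libraries, 248, 215, 332 and 325 CPM in old vehicle and 197, 320, 188 and 165 CPM in young. All D+Q libraries lay above 3 of the young ones, and young replicate 2 lay inside the D+Q range. The log2 fold change was 0.58 ± 0.207 in D+Q against young, or 1.5-fold (unadjusted p = 0.0149, adjusted p = 0.211, edgeR), and 0.22 ± 0.207 in D+Q against old vehicle (adjusted p = 1). With the GC slope as a covariate the D+Q against young value was 0.28 ± 0.107 (adjusted p = 0.205). Without young replicate 2, which had the highest GC slope of its group, it was 0.80 ± 0.16 and passed the threshold (adjusted p = 0.0196). Mlycd, the gene with the highest GC content of the 35 at 61%, ran from 65.3 to 97 CPM in D+Q, from 48.6 to 90.3 in old vehicle and from 33.1 to 100 in young.

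Relative to its mean, Pdk4 had the widest spread of the route between D+Q libraries and between young ones, with an SD of 43.4% and 114% of the mean. Ucp3 came next in D+Q at 42.8%, whereas in young it stood at 66.2%, below Pnpla2 at 70.2%. In old vehicle Acot1 had the widest spread at 42.9%, beside 36.9% for Pdk4 and 16.8% for Ucp3. Pdk4 encodes the kinase that shuts pyruvate dehydrogenase and so turns muscle from glucose to fat, and Ucp3 a mitochondrial carrier of muscle, and both are known to climb with fasting. The feeding state before collection is not given in the sources used here. Pdk4 had 691, 863, 315 and 428 CPM in D+Q libraries, 807, 356, 479 and 780 CPM in old vehicle and 515, 795, 219 and 3090 CPM in young. Young replicate 4 was at 3.89 times the next highest young library and highest of all 12, and young replicate 3 was lowest of all 12. Ucp3 had 137, 156, 78.2 and 59.7 CPM in D+Q libraries, 84.6, 79.9, 101 and 115 CPM in old vehicle and 94.6, 109, 47.4 and 236 CPM in young. The same 2 young libraries were highest and lowest of all 12 for Ucp3. These 2 libraries stood at opposite ends for both genes, and both had the lowest GC slopes of the 12. The part of GC content in the values of single libraries was not tested.

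For Pdk4 the log2 fold change was -0.08 ± 0.631 in D+Q against old vehicle (95% interval from -1.445 to 1.291, adjusted p = 1). It was -1.01 ± 0.637 in D+Q against young (adjusted p = 0.368) and -0.93 ± 0.637 in old vehicle against young (adjusted p = 0.456). Without young replicate 4 the values against young changed sign, to 0.17 for D+Q and 0.25 for old vehicle. With the GC slope as a covariate and all libraries, the Pdk4 values against young were -0.49 ± 0.756 for D+Q and -0.50 ± 0.708 for old vehicle. Ucp3 had a log2 fold change of 0.18 ± 0.409 in D+Q against old vehicle (adjusted p = 1), -0.18 ± 0.408 in D+Q against young (adjusted p = 0.81) and -0.36 ± 0.409 in old vehicle against young (adjusted p = 0.644). Without young replicate 4 its values against young were 0.36 for D+Q and 0.18 for old vehicle. With the GC slope as a covariate and all libraries they were -0.16 ± 0.514 and -0.34 ± 0.479.

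The sequences just upstream of these 2 genes are shown because both transcripts were highest in 1 young library and lowest in another. They come from the RefSeq promoter table (GRCm38.p6, the build called mm10), each on the strand of its gene. In Ucp3 the capitals mark AGGTCA, the core motif bound by PPARs and other nuclear receptors, and in Pdk4 they mark a CCAAT box read on the opposite strand.
upstream of Pdk4, chr6:5496310-5496528, minus strand: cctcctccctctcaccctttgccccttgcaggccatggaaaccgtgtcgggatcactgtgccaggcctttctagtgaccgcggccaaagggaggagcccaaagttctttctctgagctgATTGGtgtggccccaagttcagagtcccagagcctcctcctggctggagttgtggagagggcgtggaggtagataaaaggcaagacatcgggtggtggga
upstream of Ucp3, chr7:100472741-100472989, plus strand: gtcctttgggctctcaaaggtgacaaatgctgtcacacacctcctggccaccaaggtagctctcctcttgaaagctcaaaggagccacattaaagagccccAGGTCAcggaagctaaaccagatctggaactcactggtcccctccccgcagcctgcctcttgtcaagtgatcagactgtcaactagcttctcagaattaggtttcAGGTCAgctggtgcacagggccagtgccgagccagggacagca
The Ucp3 stretch holds AGGTCA 2 times and the Pdk4 stretch does not hold these letters. On both strands of the windows from 250 bases before to 50 after the start, AGGTCA was found in 8 of 30 members with a window, Cd36, Cpt1a, Acadm, Acadvl, Echs1, Acacb, Ucp3 and Plin5, and in 16.3% of all windows. The direct repeat TGACCTNTGACCT, in which N is any base and which contains AGGTCA on the other strand, was found in 0 of 30 and in 0.0396% of all windows. CCAAT was found in 16 of 30 and in 37.4%. Here too members were counted by gene, over any of their windows, and percentages by single window, so they are not directly comparable.

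**Figure D3:**
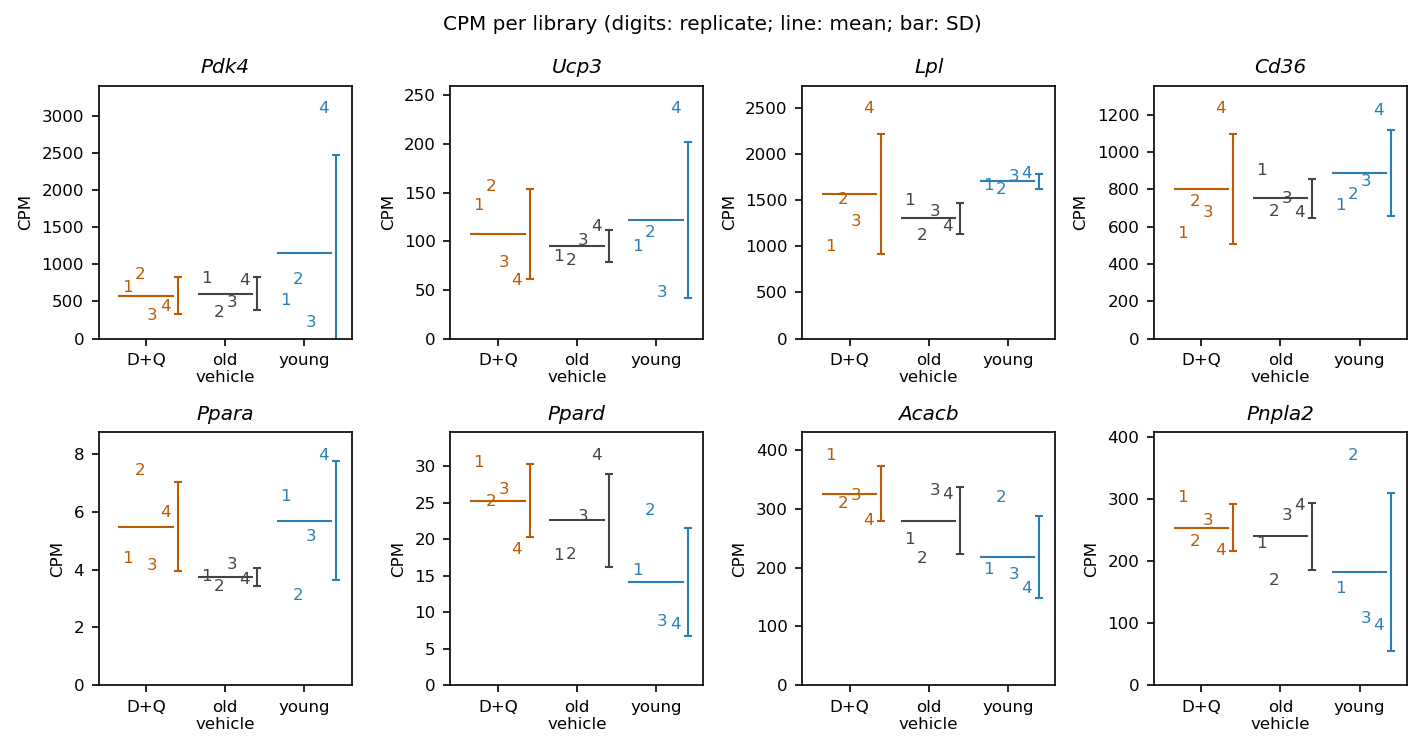
Level of 8 genes in CPM (vertical axis, from 0) in D+Q, old vehicle and young. Digits are replicate numbers, horizontal lines group means and bars 1 SD in each direction, cut off at 0 for young Pdk4. Young replicate 4 stands apart for Pdk4 (3090 CPM) and Ucp3 (236 CPM), D+Q replicate 4 for Lpl (2490 CPM) and Cd36 (1230 CPM), and young replicate 2 for Pnpla2 (370 CPM).

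The receptors themselves were measured at low levels, and without a covariate both had an unadjusted p under 0.05 in 1 comparison each. Ppara, the receptor best known from liver, had 4.37, 7.45, 4.14 and 5.99 CPM in D+Q libraries, 3.76, 3.41, 4.17 and 3.65 CPM in old vehicle and 6.55, 3.12, 5.14 and 7.96 CPM in young. The old vehicle libraries lay close together at the low end, with young replicate 2 below all of them. Its log2 fold change was 0.55 ± 0.263 in D+Q against old vehicle (unadjusted p = 0.0573, adjusted p = 1, edgeR), -0.05 ± 0.261 in D+Q against young (adjusted p = 0.919) and -0.60 ± 0.264 in old vehicle against young (unadjusted p = 0.0405, adjusted p = 0.288). With the GC slope as a covariate the first value was 0.59 ± 0.208 (unadjusted p = 0.0145, adjusted p = 0.712, edgeR) and the last -0.30 ± 0.233. Without young replicate 2 the last was -0.83 ± 0.219 and passed the threshold (adjusted p = 0.0461). In D+Q against old vehicle 2 of 35 members had an unadjusted p under 0.05 with the GC slope covariate. Beside Ppara this was Acads, at -0.17 ± 0.0577 (unadjusted p = 0.014, adjusted p = 0.705, edgeR). The share of all tested genes was not computed.

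Ppard, the receptor that predominates in muscle, had 30.6, 25.2, 26.8 and 18.6 CPM in D+Q libraries, 17.8, 17.9, 23.1 and 31.5 CPM in old vehicle and 15.7, 24, 8.69 and 8.3 CPM in young. Young replicate 2 overlapped both old groups, while the other 3 young libraries lay below all 8 old ones. The fitted log2 fold change was 0.16 ± 0.313 in D+Q against old vehicle (adjusted p = 1), 0.83 ± 0.317 or 1.78-fold in D+Q against young (unadjusted p = 0.0213, adjusted p = 0.237, edgeR) and 0.67 ± 0.316 in old vehicle against young (unadjusted p = 0.0552, adjusted p = 0.323). With the GC slope as a covariate these were 0.06 ± 0.106, 0.37 ± 0.12 (adjusted p = 0.134) and 0.32 ± 0.116 (adjusted p = 0.137). Without young replicate 2, Ppard passed the threshold at 1.18 in D+Q against young (adjusted p = 0.0286) and at 1.02 in old vehicle against young (adjusted p = 0.0444).

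At the lipid droplet, Pnpla2 encodes adipose triglyceride lipase, which begins the breakdown of stored fat, and Plin5 a coat protein that joins droplets to mitochondria. Pnpla2 had 302, 231, 265 and 217 CPM in D+Q libraries, 228, 169, 274 and 289 CPM in old vehicle and 155, 370, 107 and 96.6 CPM in young. Young replicate 2 was the highest of all 12 libraries and the other 3 young libraries were the lowest. On the log2 scale the fold change was 0.08 ± 0.355 in D+Q against old vehicle (adjusted p = 1), 0.48 ± 0.356 in D+Q against young (adjusted p = 0.427) and 0.40 ± 0.355 in old vehicle against young (adjusted p = 0.559). Without young replicate 2, Pnpla2 passed the threshold at 1.06 in D+Q against young (adjusted p = 0.0184) and 0.98 in old vehicle against young (adjusted p = 0.0225), and with the GC slope as a covariate these values were 0.09 ± 0.181 and 0.11 ± 0.178. Pnpla2 is also abundant in fat cells, and the summed level of 11 adipocyte markers was likewise highest in young replicate 2 (6500 CPM) and lowest in young replicate 4 (3730 CPM), beside 5430 and 4830 CPM in young replicates 1 and 3. It was between 3820 and 5480 CPM in D+Q and between 4800 and 4880 CPM in old vehicle, and no marker was at 0 in all libraries. Car3, which muscle fibres also express, made up 66.6% to 91.2% of these sums. Without it, a choice made after seeing the values, the sums ran from 562 to 1150 CPM in D+Q, from 424 to 919 in old vehicle and from 430 in replicate 4 to 2170 in replicate 2 in young. The part of fat cells in the Pnpla2 values was not tested. Plin5 ran from 17.2 to 35.9 CPM in D+Q, from 12.8 to 24.8 in old vehicle and from 7.2 to 26.2 in young.

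Leaving out young replicate 2 was the omission that brought members past the threshold. Then 5 of 35 were called in D+Q against young, Cpt1b, Crat, Acacb, Ppard and Pnpla2, beside 11.9% of all tested genes. In old vehicle against young 4 of 35 were called, Acacb, Ppara, Ppard and Pnpla2, beside 6.26%. Without young replicates 3 and 4, a choice made after seeing the data, 0 members were called in either comparison. Of all tested genes only 0.0902% were then called in D+Q against young and 0.481% in old vehicle against young.

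Libraries of a group were also set against each other by GC content. The libraries were split after their GC slopes had been seen, so the direction of these differences was largely set by that choice and they are descriptions. The 35 transcripts run from 38.4% GC in Cd36 to 61% in Mlycd, with a median of 52.4%. In young replicates 3 and 4 against replicates 1 and 2, each pair averaged on the log2 scale, all 7 members under 46% GC were higher. These were Cd36, Lpl, Acadl, Hadhb, Decr1, Etfa and Pdk4, with a median log2 difference of 0.357. For Pdk4 the 2 averaged libraries were opposite, with 219 CPM in replicate 3 and 3090 in replicate 4, beside 515 and 795 in replicates 1 and 2. Of the 20 members from 46% to 55%, 6 were higher, with a median of -0.103. Of the 8 members of at least 55% (Slc27a1, Acads, Etfb, Mlycd, Acacb, Ppard, Pnpla2 and Plin5), 0 were higher, with a median of -0.966. Across the 35 genes, which share these libraries and are not independent, this difference had a Pearson r of -0.838 with GC content. D+Q replicate 4 against replicate 1 gave -0.676, and old vehicle replicates 3 and 4 against 1 and 2 gave 0.902.

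Old vehicle replicate 2 differed in another way, being low for nearly the whole route. It was the lowest of its group for 33 of 35 members and the highest for 0, whereas it was the lowest for 23% of all tested genes. Its median deviation from the group mean over the members was -0.283 on the log2 scale. This library bears on the direction of D+Q against old vehicle: with it, 30 of 35 members had a positive log2 fold change, or 85.7%, beside 53.0% of all tested genes. Without it, 15 of 35 were positive, beside 52%, and the members' median was -0.015, against 0.084 with it. Without D+Q replicate 4 the number was 22 of 35. In D+Q against young 19 of 35 were positive (49.7% of all tested genes) and in old vehicle against young 15 of 35 (49.0%).

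**Figure D4:**
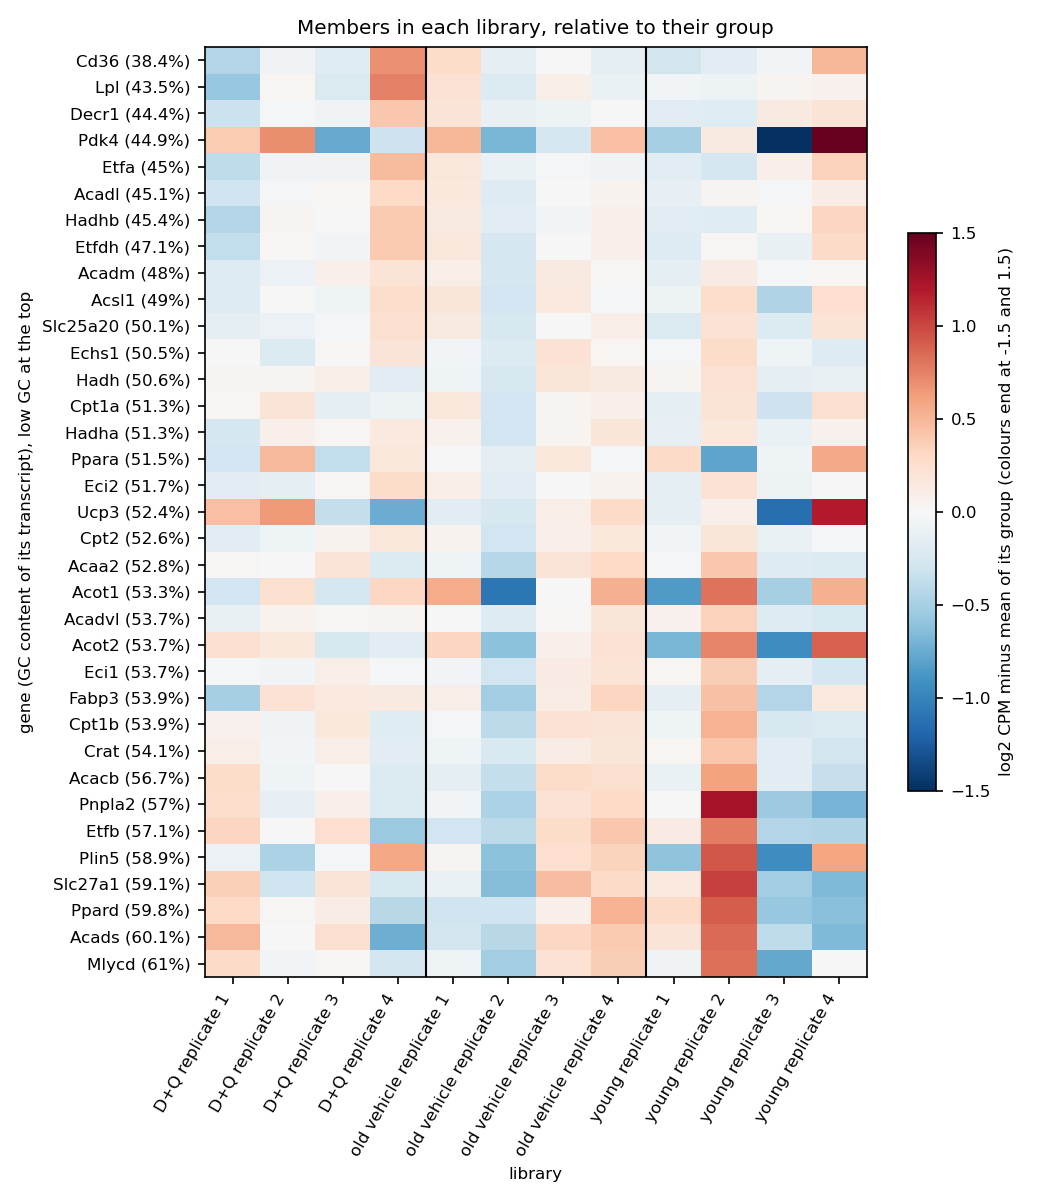
Each gene's log2 CPM minus the mean of its group (colour) in the 12 libraries (columns), with genes running down the page from low to high GC content. Old vehicle replicate 2 is below its group's mean for all 35 genes, and young replicates 2 and 4 and D+Q replicates 1 and 4 mostly differ in sign between the top and the bottom of the map.

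Genes around the route were counted from lists assembled for this work. In old vehicle against young, 1 of 17 other genes of uptake, binding and activation rose, where 1.86% of all tested genes were called. This was Acsl6, an acyl-CoA synthetase best known from brain, with 49.1, 43.3, 61.2 and 58.7 CPM in old vehicle, against 30.6, 31.9, 30.8 and 33.9 CPM in young. The groups did not overlap, as was so for 9.36% of all tested genes, and the log2 fold change was 0.74 ± 0.116 or 1.67-fold (adjusted p = 0.00671, edgeR). D+Q libraries lay at 50.3, 42.6, 42.3 and 46.3 CPM, 1.43-fold above young (adjusted p = 0.0633) and 0.855-fold of old vehicle (adjusted p = 1). Of 21 PPAR coactivators and other PPAR targets 1 rose, Hspa2, a chaperone of the heat shock protein family and no enzyme of fat oxidation. It was called in both comparisons with young, and in D+Q against young 0.892% of all tested genes were called. It averaged 5.06 ± 0.295 CPM in D+Q, 5.78 ± 0.294 in old vehicle and 2.73 ± 0.425 in young (SD, n = 4), 1.85-fold in D+Q against young (adjusted p = 0.0111) and 2.11-fold in old vehicle against young (adjusted p = 0.00197).

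No gene was called in any comparison among 20 of peroxisomal oxidation, 23 other mitochondrial acyl-CoA and carnitine genes, 19 of triglyceride storage and lipolysis, 15 of fatty acid synthesis, 18 of the tricarboxylic acid cycle or 10 of pyruvate dehydrogenase and its kinases. At an unadjusted p under 0.05 these 105 list entries held 0 in D+Q against old vehicle, 17 in D+Q against young and 10 in old vehicle against young, beside 2.16%, 17.8% and 16.0% of all tested genes. Median log2 fold changes of these lists lay between -0.152 and 0.106. Of the 13 slow fibre markers 0 were called (0, 1 and 1 at an unadjusted p under 0.05 in the same 3 comparisons), with a median of 0.526 in D+Q against old vehicle, 0.13 in D+Q against young and -0.361 in old vehicle against young, beside summed levels from 5420 to 10900 CPM in D+Q, from 5690 to 9770 in old vehicle and from 4670 to 8220 in young. Mb, the myoglobin gene, made up 43% to 63.1% of the sum in D+Q, 50.5% to 69.2% in old vehicle and 35.9% to 46% in young, and in old vehicle against young its log2 fold change was 0.72 ± 0.197 (adjusted p = 0.0913) while 11 of the 13 markers were negative. Without it the sums ran from 2000 to 6220 CPM in D+Q, from 1920 to 4830 in old vehicle and from 2580 to 4940 in young. Slow fibres are rich in oxidative enzymes, and their part in the members' values was not tested. Among the 14 fast fibre markers Myh1, a myosin of fast fibres, rose in old vehicle against young by 1.54-fold (adjusted p = 0.0114), while 7 of the 14 were positive and their median was -0.009. In the same comparison, where 1.86% of all tested genes were called, among 11 macrophage markers Cd68 rose by 1.82-fold (adjusted p = 0.0176). The 13 endothelial markers summed to between 742 and 862 CPM in D+Q, between 712 and 814 in old vehicle and between 618 and 868 in young, and the macrophage markers to between 113 and 152, between 122 and 193 and between 114 and 158 CPM. None of the endothelial markers was called, and neither were the 11 adipocyte markers, whose median was 0.203 in D+Q against old vehicle, -0.352 in D+Q against young and -0.48 in old vehicle against young.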

How the data were processed

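Stranded polyA libraries were made from quadriceps RNA, per the labels' protocols. The submitters' processing notes name STAR 2.6.1c, featureCounts 1.5.1, Subread and the mouse build mm10. The strand setting and annotation release were not stated there. Whole-number counts of reads, used for all tests, and RPKM, used for levels between genes, are given per gene as the authors deposited them. Groups came from the labels. Counts were fitted in edgeR 4.0.16 (R 4.3.3; filterByExpr with minimum count 10 and total 15, TMM, 1 quasi-likelihood fit of group means over 12 libraries), with Benjamini-Hochberg adjustment over 16146 genes and calls under 0.05. A standard error is the log2 fold change over the square root of F. Within groups, chi-square per gene between libraries was 19.9 or more (at most 307), above what counting noise alone gives. Thus no library is a second sequencing of another, but whether 2 libraries were prepared from 1 sample cannot be told from it. GC content is that of the longest protein-coding transcript (GENCODE M21), known for 99.2% of tested genes and all 35 members. Ratios were tested by exact permutation, correlations with 1e+05 resamples. Alternatives were DESeq2 1.42.0, limma-voom (limma 3.58.1), other scalings and filters, 2-group fits, a replicate block, a length slope, robust shrinkage, calls under 0.1 and leaving out libraries in turn. A GC slope covariate and a fit without young replicates 3 and 4 were chosen after seeing the data. Members, lists and tests were chosen with earlier results of these data known. Members with an unadjusted p under 0.05, and 12 fixed ones, were named in each comparison.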

Additional observations from a re-analysis of the deposited data

Results flagged for a closer look

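In groups of 4 libraries, the gap of the highest or lowest library to its neighbour was compared with Dixon's critical value for each of the 35 genes in each group. Of 105 such groups 1 passed, or 0.952%, where chance alone gives about 1 in 20. It was Fabp3 in D+Q, whose replicate 1 had 393 CPM while the other D+Q libraries had between 608 and 647 CPM, a gap of 0.846 of the range.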

How the results depend on the processing

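The count of called members was 0 in all 3 comparisons under DESeq2, limma-voom, RLE and upper-quartile scaling, no filter, a filter of 50 reads in 4 libraries, robust shrinkage, 2-group fits, a threshold of 0.1 and the GC slope covariate. With the length slope as a covariate it was 2 of 35 in old vehicle against young (Acads and Ppard), beside 11.1% of all tested genes. In D+Q against young it was then 1 of 35 (Ppard), beside 3.85%. The length slope ran opposite to the GC slope over the libraries, so the 2 covariates are not independent settings. Young replicate 4 had a GC slope of -0.614 and a length slope of 0.0549, and D+Q replicate 1 had 0.425 and -0.0403. Transcripts of Acads and Ppard are 60.1% and 59.8% GC, and the cause was not tested. With the length slope Ppard had 0.52 in old vehicle against young (adjusted p = 0.0228) and 0.56 in D+Q against young (adjusted p = 0.0375). Leaving out 1 library gave 0 to 4 called members in old vehicle against young, 0 in D+Q against old vehicle and 0 to 5 in D+Q against young. The replicate block called 0 members in all 3 comparisons and 141, 0 and 35 of all tested genes in old vehicle against young, D+Q against old vehicle and D+Q against young, against 300, 0 and 144 without it. Same-numbered libraries of different groups had correlations from -0.401 to 0.41 over all tested genes. Differently numbered libraries were not compared and the GC slopes were left in. These correlations thus cannot decide whether the numbers pair the libraries. DESeq2 called 749, 12 and 578 genes, the GC slope covariate 946, 0 and 328, 2-group fits 188, 0 and 25 and the length slope 1792, 0 and 621.

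None of the values that changed sign was called, and the cause was not tested. Hadhb in D+Q against old vehicle was -0.0048 in DESeq2, -0.023 in limma-voom and with the replicate block, -0.0056 with RLE scaling and -0.009 without a filter, and Acadm in D+Q against young was -0.011 with upper-quartile scaling. With the length slope, Hadhb was 0.014 in old vehicle against young and 0.052 in D+Q against young, Pdk4 0.041 and Pnpla2 -0.038 in D+Q against old vehicle, and Cd36 0.060 and Ppara 0.20 in D+Q against young. With the GC slope, Cd36 was 0.039 and Hadhb 0.090 in old vehicle against young, Pdk4 0.013 and Pnpla2 -0.014 in D+Q against old vehicle, and Cd36 0.16, Lpl 0.070, Hadhb 0.11 and Ppara 0.29 in D+Q against young. Without young replicates 3 and 4, Cd36 was 0.017, Cpt1b -0.012, Hadhb 0.095 and Pnpla2 -0.13 in old vehicle against young, and Cd36 0.11, Hadhb 0.098, Ucp3 0.082, Ppara 0.18 and Pnpla2 -0.049 in D+Q against young.

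Leaving out 1 library at a time, signs changed within these ranges. In old vehicle against young, Acadm ran from -0.11 to 0.013, Hadhb from -0.18 to 0.022, Pdk4 from -1.28 to 0.25 and Ucp3 from -0.63 to 0.18. In D+Q against old vehicle, Cd36 ran from -0.19 to 0.23, Lpl from -0.050 to 0.43, Hadha from -0.069 to 0.088, Hadhb from -0.14 to 0.13, Pdk4 from -0.34 to 0.13, Pnpla2 from -0.055 to 0.17 and Ucp3 from -0.052 to 0.38. In D+Q against young, Acadm ran from -0.052 to 0.066, Cd36 from -0.43 to 0.050, Lpl from -0.44 to 0.029, Hadhb from -0.24 to 0.025, Pdk4 from -1.35 to 0.17, Ppara from -0.29 to 0.15 and Ucp3 from -0.44 to 0.36. The members' median log2 fold change moved by less than 0.172, the SD between libraries of a group, in every alternative. That bound is larger than the medians themselves, so it does not show that their direction held. With 1 library left out the median ran from -0.015 to 0.124 in D+Q against old vehicle. It ran from 0.013 to 0.163 in D+Q against young and from -0.082 to 0.025 in old vehicle against young. In D+Q against old vehicle the 95% intervals of Acot1, Pdk4, Ucp3, Ppara and Plin5 reached past 2-fold, so a change of that size could be missed with 4 libraries a group.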
